A study of Mus musculus with 12 samples.

Results

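Trim5, Trim12a, Trim34b, Mrpl48, Gvin1 and Art2b are 6 genes within 5.67 Mb of mouse chromosome 7 that were chosen by their measured levels, which differed in T cells labelled Dcaf1-deficient. They are 6 of the 13404 genes in the deposited table, and all 6 were among the 9495 genes that passed a filter on low counts and were tested. The labelled and young libraries chose them, so every difference between those libraries is given for them as a description, with no test. Poly(A) RNA was sequenced from T cells of mouse spleens, with C57BL/6 as the strain label of all. The 12 libraries fell into 6 groups of 2: regulatory T cells (Treg, sorted as CD4+CD25+) and conventional T cells (Tconv, sorted as CD4+), each from wild-type mice that were young (2 months) or aged (over 18 months) and from mice labelled Dcaf1-deficient, also 2 months old. The promoter or Cre line behind the deficiency, the cells that lost the gene and the number of mice per library are not given in the sources used here, so p-values measure the spread between these libraries only. The study asked how Dcaf1 and age bear on Treg.

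TRIM proteins are a large family that typically carry a RING domain, which transfers ubiquitin, followed by a B-box and a coiled coil. Trim5, Trim12a, Trim12c, Trim30a, Trim30d, Trim34a and Trim34b are the mouse relatives of primate TRIM5 and TRIM34, sit close together on chromosome 7, and belong to a group known for binding retroviral capsids and for induction by interferon. Gvin1 encodes a very large interferon-inducible GTPase, Mrpl48 encodes a protein of the large subunit of the mitochondrial ribosome, and Art2b encodes an enzyme anchored to the T cell surface that transfers ADP-ribose from extracellular NAD to other surface proteins.

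In the libraries labelled Dcaf1-deficient, Trim5, Trim12a, Mrpl48, Gvin1 and Art2b had lower levels than in young wild-type libraries of the same cell type, and Trim34b had a higher level. The log2 fold changes ranged from -3.42 for Art2b to 3.20 for Trim34b in Treg, and from -4.02 for Trim12a to 3.85 for Trim34b in Tconv. The other 36 tested genes of the same 5.67 Mb had a median absolute log2 fold change of 0.25, against 0.31 over all 9495 genes tested. A library labelled aged wild type, aged Treg 1, had levels of all 6 genes between those of the labelled and the other wild-type libraries.

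The libraries held 18358477 to 26852448 estimated counts each, and levels below are CPM, counts scaled to TMM-adjusted library sizes. Dcaf1, listed under its older symbol Vprbp, encodes a protein that brings targets to the CUL4 ubiquitin ligase and had 102 and 101 CPM in the labelled Treg libraries, against 144 and 128 in young Treg; the aged Treg libraries had 105 and 127. The labelled Tconv libraries had 132 and 132 CPM, young Tconv 147 and 144, and aged Tconv 117 and 90.5. Counts summed over a gene cannot show whether 1 of its exons was removed, so these libraries are called labelled. The sort marker Il2ra, which encodes CD25, was higher in aged Treg than in aged Tconv by 4.57 on the log2 scale (SE 0.41, edgeR quasi-likelihood test, adjusted p = 0.00543). Over the 9495 genes, aged Treg 1 correlated best with labelled Treg 1 (Pearson r = 0.993) and next with labelled Treg 2 (r = 0.981), not with aged Treg 2. Log2 fold changes of the chosen genes that aged Treg 1 enters are therefore also given without it. This was done where it turned a sign or moved them by over 1.5 times. The number of genes that passed the test also changed without aged Treg 1 in several comparisons. The shares of all genes called below include this library, and the last section gives ranges over leaving out each library.

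Markers of macrophages, erythroid cells and neutrophils were higher in both labelled libraries than in both young libraries of each cell type, and aged Treg 1 lay near labelled Treg. The 6 macrophage markers in the table summed to 91.1 to 2647 CPM in young Treg and 7765 to 9398 in labelled Treg, and to 12.6 to 174 in young Tconv and 658.5 to 706.7 in labelled Tconv. The 5 erythroid markers summed to 19.4 to 1570 CPM in young Treg and 5164 to 11646 in labelled Treg, and to 6.43 to 114 in young Tconv and 1461 to 1468 in labelled Tconv. The 6 neutrophil markers summed to at most 44.7 CPM in young and at least 275 in labelled Treg, and to at most 2.92 in young and at least 45.8 in labelled Tconv, with 2 markers at 0 in young Treg 1, 4 in young Tconv 1 and 1 in young Tconv 2. Aged Treg 1 had 6534, 4383 and 235 CPM of these 3 sets and aged Treg 2 had 500.3, 145 and 9.80, while aged Tconv had at most 41.3, 149 and 5.70. The 4 B cell markers summed to 53.7 to 1816 CPM in young and 1674 to 1790 in labelled Treg, and to 11.5 to 113 in young and 172 to 182 in labelled Tconv, so that young Treg 2 exceeded both labelled Treg libraries; aged Treg 1 had 1427 CPM and aged Treg 2 56.5. The 6 T cell markers summed to 3564 to 5097 CPM in young Treg and 2401 to 2715 in labelled Treg, while in Tconv they summed to 5864 to 6194 in the young and 6286 to 6330 in the labelled libraries. Aged Treg 1 and 2 had 2957 and 6107 CPM of them. The 4 Treg markers summed to 2985 to 5178 CPM in young Treg, 1918 to 2315 in labelled Treg, 2799 in aged Treg 1 and 7224 in aged Treg 2. All 4 had a negative log2 fold change in labelled against young Treg, with a median of -1.02, and 0 of them were called, in a comparison in which 0% of all genes were. The part of these cells in the levels of the 6 genes was not tested, and in bulk RNA fewer cells of a type and less RNA per cell cannot be told apart.

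Several Trim genes of the stretch are copies of each other. The sequences before their starts were close for Trim5, Trim12a and Trim12c, and far less so for Trim34a and Trim34b. RefSeq on GRCm38.p6, the build of mm10, places Trim5 at chr7:104263386-104288254, Trim12a at chr7:104299893-104315558 and Trim34b at chr7:104329471-104336617. Windows of 250 bases before an annotated start were taken for each gene. Of these, 148 bases for Trim5, 63 for Trim12a, 9 for Trim12c and 9 for Trim34a lie inside the annotated gene span and are not printed. Trim5 (chr7:104288255-104288356), Trim12a (chr7:104315559-104315745) and Trim12c (chr7:104353359-104353599) are on the minus strand and are shown because Trim5 and Trim12a had nearly the same fold change. Capitals mark the longest run each shares with the piece printed for Trim5, or, for Trim5, with that of Trim12a.
Trim5: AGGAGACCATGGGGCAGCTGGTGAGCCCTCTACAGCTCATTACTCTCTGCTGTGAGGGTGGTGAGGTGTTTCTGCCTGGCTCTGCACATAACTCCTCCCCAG
Trim12a: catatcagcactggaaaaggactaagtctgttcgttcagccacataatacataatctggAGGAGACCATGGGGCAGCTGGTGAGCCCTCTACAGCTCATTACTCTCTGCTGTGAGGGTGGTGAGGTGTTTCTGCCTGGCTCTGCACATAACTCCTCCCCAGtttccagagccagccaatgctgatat
Trim12c: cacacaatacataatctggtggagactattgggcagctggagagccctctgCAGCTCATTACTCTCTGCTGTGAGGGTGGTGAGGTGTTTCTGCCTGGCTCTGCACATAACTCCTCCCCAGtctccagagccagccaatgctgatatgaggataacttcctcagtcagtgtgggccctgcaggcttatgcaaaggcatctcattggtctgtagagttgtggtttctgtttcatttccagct
All 102 bases printed for Trim5 recur in Trim12a, and over the whole windows the 2 genes were identical for 191 bases. Trim12c, whose fold change was far smaller, shared 220 of 230 aligned bases with Trim5. No GENCODE M21 transcript opens with the bases that follow the annotated Trim12a start, so that start is less certain than that of Trim5.

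Trim34a (chr7:104244207-104244447) and Trim34b (chr7:104329221-104329470) lie on the plus strand and are shown because their fold changes differed in sign. Capitals mark the longest run the 2 printed pieces share, which is 9 bases.
Trim34a: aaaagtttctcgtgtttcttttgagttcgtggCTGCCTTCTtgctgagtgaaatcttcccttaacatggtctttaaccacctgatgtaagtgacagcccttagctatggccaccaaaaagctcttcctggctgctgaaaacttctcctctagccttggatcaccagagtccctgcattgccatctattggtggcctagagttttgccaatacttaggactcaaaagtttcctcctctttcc
Trim34b: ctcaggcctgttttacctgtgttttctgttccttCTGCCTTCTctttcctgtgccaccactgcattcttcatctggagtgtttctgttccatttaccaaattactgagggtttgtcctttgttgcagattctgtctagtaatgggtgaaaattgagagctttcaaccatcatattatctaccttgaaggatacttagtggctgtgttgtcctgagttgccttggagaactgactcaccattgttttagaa
Over the 250 bases, Trim34a and Trim34b had 149 identical of 212 aligned bases, close to the 149 of 211 between Trim5 and Trim34b. Their transcripts are far more alike than these windows, as given below. A motif of GAAA, any 2 bases and GAAA again, a form of the interferon-stimulated response element, was searched on both strands. It was in 978 of 32851 windows of this length (2.98%), among them those of Trim5, Trim12c, Trim30a and Trim30d, and not in those of Trim12a, Trim34a, Trim34b, Mrpl48 and Art2b. In the windows of Trim12a and Trim34a that run 50 bases past the start, a match began at base 11 after it. A match is a description of letters and says nothing of binding.

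Trim12a, a copy of Trim5, had 36.2 and 7.64 CPM in labelled Treg 1 and 2, against 205 and 183 in young Treg; aged Treg had 43.5 and 139. The labelled Tconv libraries had 16.7 and 14.5 CPM, those of young mice 262 and 243, those of aged mice 190 and 171. All 4 labelled libraries were below all 8 others, with labelled Treg 1 just under aged Treg 1. Labelled against young libraries, its log2 fold change was -3.14 in Treg (SE 0.73) and -4.02 in Tconv (SE 0.76).

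Trim5, the gene next to it, was also lowest in the labelled libraries. Labelled Treg 1 and 2 held 10.2 and 2.10 CPM of it, young Treg 49.9 and 60.2, and aged Treg 15.4 and 73.3. Labelled Tconv held 3.66 and 3.09 CPM, young Tconv 34.9 and 47.1, and aged Tconv 42.4 and 62.0. The labelled libraries did not overlap with the other 8, and the smallest gap was again that between labelled Treg 1 and aged Treg 1. Its log2 fold change was -3.16 in Treg (SE 0.86) and -3.60 in Tconv (SE 0.88).

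Trim34b, a copy of Trim34a, was the member with the opposite sign. Young Treg held only 1.65 and 2.21 CPM, aged Treg 12.3 and 1.33, and labelled Treg 15.4 and 20.1. Young Tconv held 1.92 and 1.65 CPM, aged Tconv 2.28 and 1.43, and labelled Tconv 23.8 and 28.1. Outside aged Treg 1 no wild-type library passed 2.28 CPM, and no labelled library was under 15.4. For Trim34b the log2 fold change was 3.20 in Treg (SE 0.86) and 3.85 in Tconv (SE 0.88).

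Mrpl48, a mitochondrial ribosomal gene with no sequence relation to the Trim genes, lies at chr7:100545779-100608301. Its CPM in replicates 1 and 2 were 10.2 and 2.31 for labelled Treg, 32.4 and 39.2 for young Treg, and 12.04 and 28.8 for aged Treg. They were 3.12 and 3.62 for labelled Tconv, 34.3 and 39.3 for young Tconv, and 29.2 and 36.3 for aged Tconv. Among the 7 wild-type libraries other than aged Treg 1 the level stayed between 28.8 and 39.3 CPM. Mrpl48 had a log2 fold change of -2.52 in Treg (SE 0.65) and -3.45 in Tconv (SE 0.68). Mrpl48 lies on the minus strand, and its start side overlaps the span of Rab6a, which encodes a Golgi trafficking GTPase. The log2 fold change of Rab6a was -0.08 in Treg and 0.0012 in Tconv. Whether counting used strand is not given in the sources used here.

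Gvin1, the interferon-inducible GTPase, lies at chr7:106156535-106215340. Replicates 1 and 2 had 314 and 130 CPM as labelled Treg, 2609 and 1396 as young Treg, and 691 and 3809 as aged Treg. As labelled Tconv they had 208 and 185 CPM, as young Tconv 761 and 700.7, and as aged Tconv 1123 and 1279. Aged Treg 1 lay beside young Tconv, and the labelled libraries were below all 8 others. The log2 fold change was -3.17 in Treg (SE 0.77) and -1.90 in Tconv (SE 0.73).

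Art2b, the ADP-ribosyltransferase, lies at chr7:101575729-101585591. It had 7.95 and 7.93 CPM in the labelled Treg libraries, 110 and 59.7 in those of young and 25.2 and 238 in those of aged mice. For Tconv these values were 12.7 and 12.4 CPM (labelled), 62.7 and 54.0 (young) and 90.1 and 202 (aged). The 2 labelled Treg libraries had nearly the same level, unlike their levels of Trim5, Trim12a and Mrpl48. This gave a log2 fold change of -3.42 in Treg (SE 0.92) and -2.22 in Tconv (SE 0.88).

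**Figure D1:**
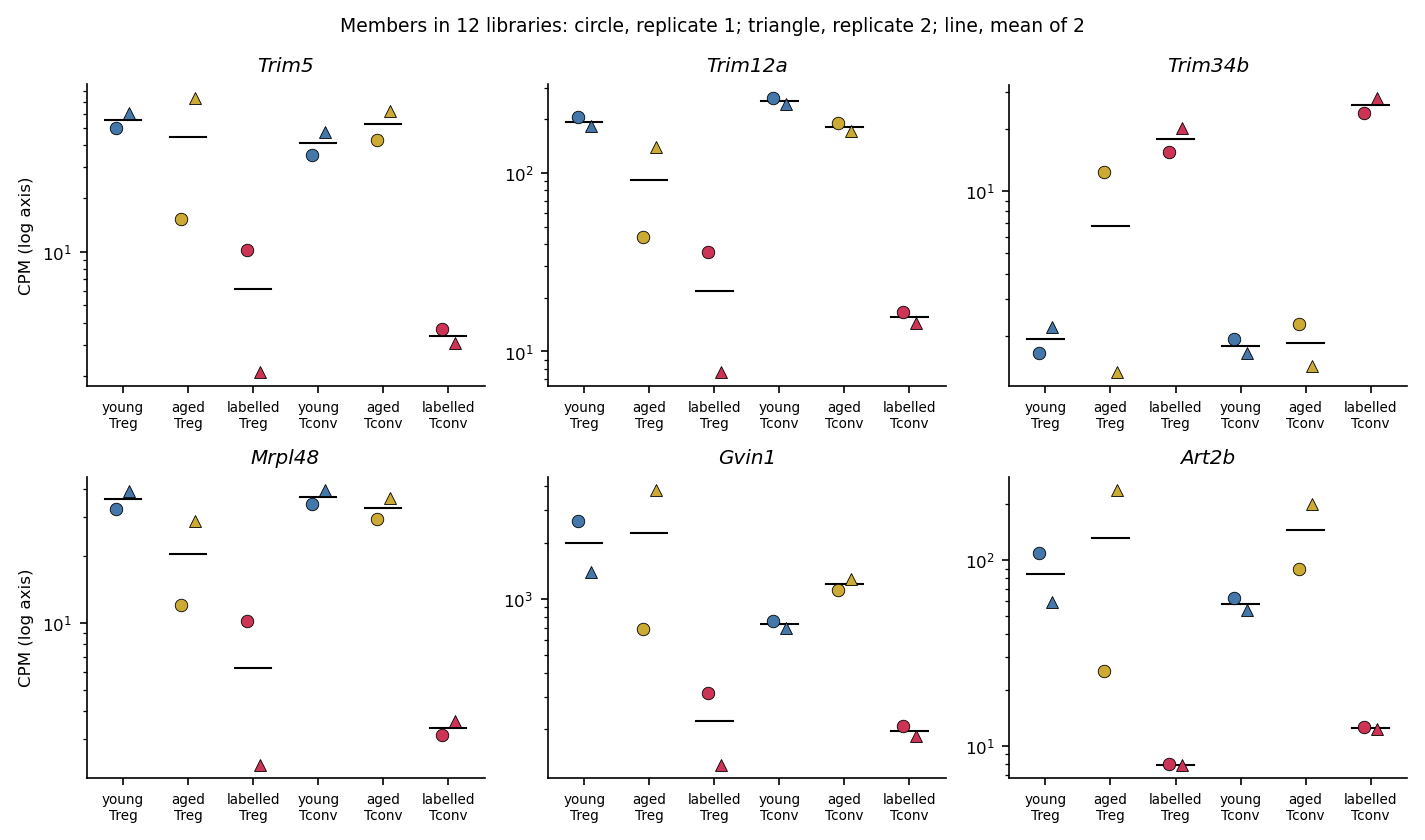
Level of each of the 6 genes in the 12 libraries (CPM, log axis) by group, with a circle for replicate 1, a triangle for replicate 2 and a line for the mean of 2. The labelled libraries are lowest for 5 genes and highest for Trim34b, and the circle of aged Treg lies nearest to them among the wild-type points in each panel.

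The 4 labelled libraries did not overlap with the 8 others for any of the 6 genes, in a contrast that chose them. Over all 9495 genes, labelled libraries lay below all 8 others for 1.43% of genes and above them for 0.885%. With aged Treg 1 left out, an alternative chosen after seeing the data, these shares were 3.52% and 3.49%. Without aged Treg 1, the fold between the nearest labelled and wild-type libraries was 3.42 for Trim5, 3.85 for Trim12a, 6.76 for Trim34b, 2.83 for Mrpl48, 2.23 for Gvin1 and 4.25 for Art2b.

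The 2 labelled Treg libraries differed from each other. Labelled Treg 1 was above labelled Treg 2 by 2.23 (log2) for Trim5 and for Trim12a, 2.10 for Mrpl48 and 1.27 for Gvin1, and below it by 0.39 for Trim34b. The labelled Tconv libraries differed by at most 0.24 for any of the 6 genes. On the linear CPM scale, labelled Treg 1 stood 15.3% of the way from labelled Treg 2 to the young Treg mean for Trim5 and for Trim12a, 26.1% for Trim34b, 23.5% for Mrpl48, 9.84% for Gvin1 and 0.0172% for Art2b. Aged Treg 1 stood 25.1% of that way for Trim5, 19.2% for Trim12a, 43.1% for Trim34b, 29.1% for Mrpl48, 29.96% for Gvin1 and 22.5% for Art2b. The sample titles carry a tag, L3, L4 or L5, of unstated meaning. Within tag L5, the 2 labelled Tconv libraries against young Tconv 2 gave log2 differences of -3.77 for Trim5, -3.96 for Trim12a, 3.90 for Trim34b, -3.51 for Mrpl48, -1.84 for Gvin1 and -2.10 for Art2b, and all young and labelled Treg libraries carry L4.

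The label's difference was also set side by side in both cell types. The Treg log2 fold change minus that of Tconv was 0.45 for Trim5 (SE 1.13), 0.87 for Trim12a (SE 0.96), -0.65 for Trim34b (SE 1.13) and 0.93 for Mrpl48 (SE 0.88). It was -1.28 for Gvin1 (SE 1.01) and -1.20 for Art2b (SE 1.19). Without labelled Treg 1 the values of Trim5, Trim12a and Mrpl48 turned to -1.11, -0.65 and -0.51, and that of Gvin1 moved to -2.06. Over all genes tested, edgeR called 0 genes in this difference (0%), with 260 at an unadjusted p under 0.05 and 1 by DESeq2.

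Against age, none of the 6 genes passed the test in either cell type. In aged against young Treg the log2 fold change was -0.31 for Trim5 (SE 0.79, edgeR adjusted p = 0.859), -1.09 for Trim12a (edgeR adjusted p = 0.426) and 1.82 for Trim34b (edgeR adjusted p = 0.293). It was -0.81 for Mrpl48 (edgeR adjusted p = 0.509), 0.17 for Gvin1 (edgeR adjusted p = 0.918) and 0.63 for Art2b (edgeR adjusted p = 0.713). EdgeR called 0 of all 9495 genes in that comparison (0%), with 1697 at an unadjusted p under 0.05 and 713 by DESeq2. Without aged Treg 1 the values for Trim5 and Trim34b turned sign, to 0.41 and -0.53, and those of Trim12a, Mrpl48, Gvin1 and Art2b moved to -0.48, -0.32, 0.93 and 1.49. Without aged Treg 2 the values for Gvin1 and Art2b turned sign, to -1.54 and -1.75, and those of Trim5, Trim12a and Mrpl48 moved to -1.84, -2.16 and -1.57. The direction against young Treg of Trim5, Trim34b, Gvin1 and Art2b thus turned when 1 aged Treg library was left out. That of Gvin1 also turned without young Treg 2, to -0.21. With a term for the tag, Gvin1 and Art2b turned to -1.08 and -1.31, and with limma on the deposited log2 values Gvin1 turned to -0.14. The young libraries here are those that the choice of genes used.

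In aged against young Tconv, where edgeR called 8.86% of all genes, again 0 of the 6 genes passed. The log2 fold change was 0.35 for Trim5 (edgeR adjusted p = 0.797), -0.48 for Trim12a (edgeR adjusted p = 0.669) and 0.05 for Trim34b (edgeR adjusted p = 0.980). It was -0.17 for Mrpl48 (edgeR adjusted p = 0.878), 0.72 for Gvin1 (edgeR adjusted p = 0.542) and 1.32 for Art2b (edgeR adjusted p = 0.337). For Gvin1 both aged Tconv libraries were above both young ones, and a fit of the 6 Tconv libraries alone gave an adjusted p of 0.0420. Art2a-ps, the neighbouring copy of Art2b, had 51.5 and 448 CPM in aged Tconv against 10.4 and 9.96 in young Tconv, and it rose by 4.62 (SE 1.07, edgeR adjusted p = 0.0410). Without young Tconv 1, or without young Tconv 2, edgeR called 0 genes in this comparison, and this holds for each gene given below as changed in aged Tconv.

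Aged Treg were also compared with aged Tconv, in 4 libraries that did not choose the genes. EdgeR called 0.821% of all genes in this comparison and 0 of the 6. The log2 fold change, Treg minus Tconv, was -0.24 for Trim5 (edgeR adjusted p = 0.904), -0.98 for Trim12a (edgeR adjusted p = 0.456), 1.88 for Trim34b (edgeR adjusted p = 0.267), -0.68 for Mrpl48 (edgeR adjusted p = 0.572), 0.91 for Gvin1 (edgeR adjusted p = 0.510) and -0.15 for Art2b (edgeR adjusted p = 0.943). Without aged Treg 1 the values of Trim5, Trim34b and Art2b turned to 0.49, -0.47 and 0.70, and those of Trim12a, Mrpl48 and Gvin1 moved to -0.37, -0.19 and 1.67. Without aged Treg 2 that of Gvin1 turned to -0.80, those of Trim5, Trim12a, Mrpl48 and Art2b moved to -1.76, -2.05, -1.44 and -2.53, and that of Trim34b passed the threshold at 2.73 (edgeR adjusted p = 0.0216).

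The copies of the Trim members in the same cluster had smaller differences, in the plot of the Trim genes in their order on the chromosome. Trim12c, the nearest copy of Trim5 and Trim12a, had 106 and 103 CPM in the labelled Treg libraries, 187 and 191 in those of young and 118 and 183 in those of aged mice. For Tconv these values were 117 and 114 CPM (labelled), 185 and 189 (young) and 160 and 162 (aged), so that the labelled libraries lay below all others. Over both cell types it fell by 0.78 on the log2 scale (SE 0.12, edgeR adjusted p = 0.0480), in a comparison in which 0.927% of all genes were called. This call and those below over both cell types did not hold in every fit that left out 1 library. Leaving out a young or labelled library leaves 1 in its group. The loss of a call there cannot tell the weight of 1 library from the smaller sample. Trim30d was at 36.5 and 25.5 CPM in labelled Treg, at 12.9 and 11.2 in labelled Tconv, and at 44.5 or more in every other library. Its log2 fold change was -1.49 in Treg and -2.31 in Tconv. Over both cell types, Trim30d had a log2 fold change of -1.90 (SE 0.35, edgeR adjusted p = 0.0515) and Trim34a one of -0.87 (SE 0.18, edgeR adjusted p = 0.0547), and neither passed. Trim30a, between Trim12c and Trim30d, had one of 0.14 (SE 0.09, edgeR adjusted p = 0.320). Of the 16 listed copies of the members 6 are in the table and 5 were tested, and Trim12c was the 1 that passed.

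**Figure D2:**
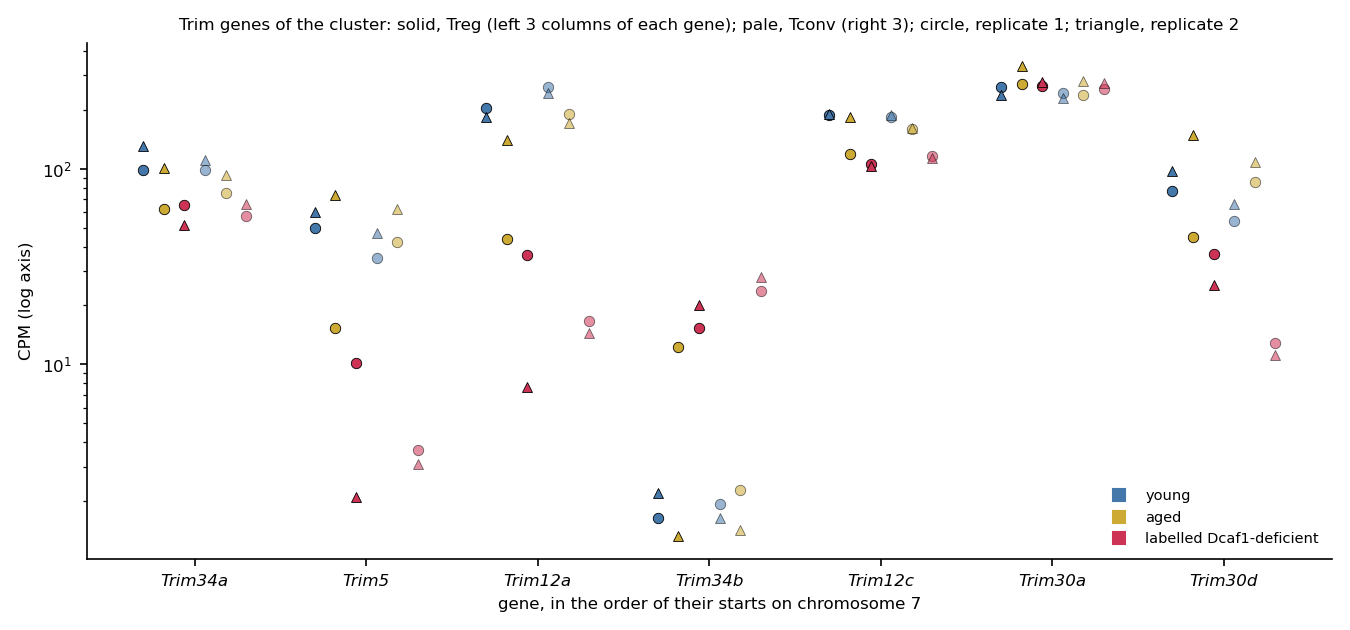
Level (CPM, log axis) of the 7 Trim genes of the cluster in the order of their starts, with Treg in solid and Tconv in pale colours, circles for replicate 1 and triangles for replicate 2. Trim5 and Trim12a are low and Trim34b high in the labelled libraries, while Trim30a has about the same level in all 12 libraries.

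How reads of such copies were divided bears on these values. Of the words of 31 bases in the GENCODE M21 transcripts of a gene, 69% recurred in Trim34a for Trim34b, 37.9% in Trim12c and 12.3% in Trim12a for Trim5, and 7.77% in Trim5 for Trim12a. For Gvin1, 99% recurred in Gm4070, which is not analysed here, for Art2b 8.73% in Art2a-ps, and for Mrpl48 8.25% in Rab6a. The levels of Gvin1, Trim34b and Trim5 are therefore uncertain as values of 1 gene. Summed levels do not depend on the division among the copies summed. Trim5, Trim12a and Trim12c together were at 438 ± 5.45 CPM in young and 133 ± 27.9 in labelled Treg (SD, n = 2), and at 480 ± 2.11 in young and 134 ± 4.14 in labelled Tconv (SD, n = 2). Trim34a and Trim34b together were at 116 ± 22.7 CPM in young and 76.2 ± 6.25 in labelled Treg (SD, n = 2), and at 107 ± 8.82 and 87.5 ± 9.45 in Tconv (SD, n = 2), so their sum was not higher in the labelled libraries. Trim34b made up 1.31% to 2.95% of that sum in the 7 wild-type libraries other than aged Treg 1, 16.5% in aged Treg 1 and 19.1% to 29.8% in the labelled libraries. Art2a-ps and Art2b together were at 107 ± 41.7 CPM in young and 36.7 ± 5.59 in labelled Treg (SD, n = 2), and at 68.5 ± 6.51 and 36.5 ± 2.47 in Tconv (SD, n = 2).

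The stretch that holds the 6 genes runs over chr7:100545779-106215340 and has 42 tested genes. By a separation of at least 1 (log2 CPM) between the 4 labelled libraries and all 8 others, 1 of the 42 stood apart, Gvin1, with Art2b just under at -0.99, against 0.0421% of all genes lower and 0% higher. Without aged Treg 1 the 6 chosen genes stood apart and none of the other 36 did, against 0.116% of all genes lower and 0.284% higher. In the 10 Mb on either side, 0 of 31 and 0 of 26 tested genes did. By lack of overlap alone, with no gap asked, labelled libraries lay below all 8 others for 2 of the other 36 genes, Trim12c and Trim30d. Without aged Treg 1 they did so for 4, with Trim34a and Olfr613 added. In both settings 0 of the 36 lay above. Over all genes the shares below were 1.43% and 3.52%. The 6 genes were chosen on the labelled and young libraries, and the stretch was drawn from the first to the last of them. These counts are therefore a description and no test of the region. Of the 36 other genes, Trim12c and Inppl1, a lipid phosphatase gene, passed the test over both cell types. Inppl1 rose by 1.79 (edgeR adjusted p = 0.0203), and it was as high in aged libraries, at 80.9 to 136 CPM, as in labelled ones, at 92.0 to 131. Hbb-bs, an adult beta globin gene of the same stretch, had a log2 fold change of 3.78 (edgeR adjusted p = 0.147).

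**Figure D3:**
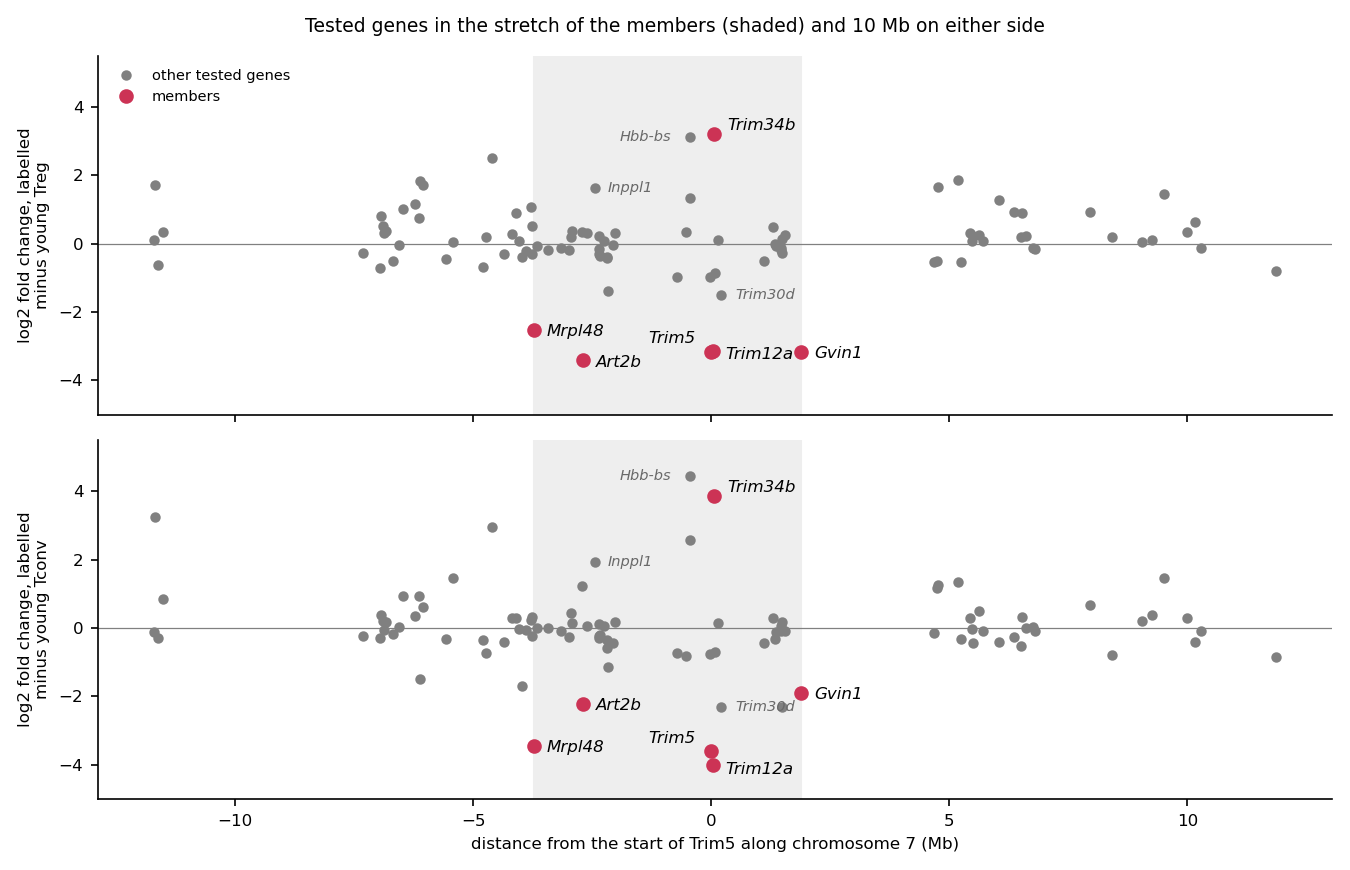
Log2 fold change of labelled against young libraries (top, Treg; bottom, Tconv) for tested genes by distance from the start of Trim5 along chromosome 7 in Mb, with the stretch of the 6 genes shaded. The 6 genes, in red, lie away from 0 among neighbours that mostly lie near it.

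Without aged Treg 1, genes outside the stretch that were lower in all labelled libraries by at least 1 (log2 CPM) included Susd4, the Mediator subunit gene Med23, the ribosomal protein gene Rpl29, Abhd14b and Mst1. On chromosomes other than 7, 6 genes were lower and 25 higher by this gap. Of those named, Rpl29, Abhd14b and Mst1 lie on chromosome 9, as does Dcaf1 (chr9:106814169-106880992), at chr9:106428889-106431568, chr9:106447737-106452923 and chr9:108080409-108085027. Of the 483 tested genes of chromosome 9, 4 were lower and 2 higher, against 0.116% and 0.284% of all genes. Col6a4, at chr9:105990318-106096828, was among the higher ones. The genes whose log2 CPM over the 12 libraries was most like that of a member came partly from the same place. For Trim12a they included Rpl29 (Pearson r = 0.964) and Abhd14b (r = 0.936), and for Mrpl48 Abhd14b (r = 0.941) and Rpl29 (r = 0.937). For Trim5 they were Abhd14b (r = 0.946), Car7 (r = 0.934) and Trim30d (r = 0.933), and for Trim34b Col6a4 (r = 0.980), Arntl2 (r = 0.961) and Epha8 (r = 0.961). For Gvin1 they were Lrig1 (r = 0.943), Car7 (r = 0.939) and Cab39 (r = 0.933), and for Art2b Zmym4 (r = 0.967), Ccnyl1 (r = 0.960) and Car7 (r = 0.958). These are descriptions over 12 libraries that share the label's split and that also chose the members. Over the 7 wild-type libraries other than aged Treg 1, r with Abhd14b was 0.00035 for Trim5, -0.22 for Trim12a and -0.66 for Mrpl48. With Rpl29 it was 0.92 for Trim12a and 0.54 for Mrpl48. Trim5 had 0.80 with Car7 and 0.92 with Trim30d. Trim34b had 0.71 with Col6a4, -0.18 with Arntl2 and 0.20 with Epha8. For the genes named for Gvin1 and Art2b these values lay between 0.67 and 0.92. Between Trim12a and Mrpl48, r was 0.986 over the 12 libraries, 0.940 over the 8 wild-type ones and 0.450 over the 7 of these other than aged Treg 1. Between Trim12a and Trim5 the 3 values were 0.962, 0.675 and -0.880, and between Trim12a and Gvin1 0.843, 0.125 and -0.783. The likeness of these pairs, which all hold Trim12a, thus rested on the labelled libraries and aged Treg 1. Over the same 7 libraries, r between the other pairs of members ran from -0.809 for Trim12a and Art2b to 0.722 for Gvin1 and Art2b. The values without aged Treg 1 were added after seeing the data. The strain label is C57BL/6 for all 12 libraries and the tables hold no base calls.

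The families of the members are shown in the plot of family members by cell type. Among the 39 other tested Trim genes, over both cell types, 0 were called higher and 1 lower, Trim12c, with a median log2 fold change of -0.16 against -0.01 over all genes. Their log2 fold changes ran from -1.90 for Trim30d to 5.23 for Trim10 (edgeR adjusted p = 0.0850). That of Trim10, which was not called, was thus larger than the 3.53 of Trim34b. In aged Tconv 2 of the 39 rose and 0 fell, Trim46 by 2.16 (edgeR adjusted p = 0.0158) and Trim2 by 2.47 (edgeR adjusted p = 0.0270). Among the other 35 genes of the mitochondrial large ribosomal subunit, which with Mrpl48 make proteins of 1 particle, 0 were called, and their log2 fold changes lay between -0.29 and 0.28 against -2.98 for Mrpl48. In aged Tconv, Mrpl30 fell by 0.72 (edgeR adjusted p = 0.0248). Among 16 other interferon-inducible GTPase genes 0 were called, with a median of 0.01 over both cell types, -0.38 in Treg and 0.45 in Tconv. In aged Tconv, Gbp3 and Gbp5, guanylate-binding proteins, rose by 1.86 (edgeR adjusted p = 0.0267) and 1.56 (edgeR adjusted p = 0.0288). Of 26 interferon response genes, 3 were called higher in the labelled libraries over both cell types and 0 lower: Ifi27l2a by 0.66, the transcription factor gene Irf7 by 0.71 and Oas1a, a sensor of double-stranded RNA, by 1.19 (edgeR adjusted p = 0.0480 each), against 0.927% of all genes called. The list's median was 0.56, against -0.01 over all genes; of the members in interferon-inducible families, Gvin1, Trim5 and Trim12a had -2.53, -3.38 and -3.58 and Trim34b 3.53. In aged Tconv, where 8.86% of all genes were called, 1 of the 26 rose and 2 fell: Oas1a rose by 1.26 (edgeR adjusted p = 0.0349), Ifit2 fell by 1.18 (edgeR adjusted p = 0.0209) and Oas2 fell by 2.67 (edgeR adjusted p = 0.0401).

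Among 11 other genes of ADP-ribosylation and of extracellular NAD and ATP handling, 0 were called over both cell types. Their median was 0.40, between -1.41 for Nt5e, which makes adenosine from AMP, and 2.24. The NAD-consuming surface enzyme gene Cd38 had a log2 fold change of 1.44 (edgeR adjusted p = 0.111) and P2rx7, the ATP-gated channel gene whose product Art2b modifies, one of -0.53 (edgeR adjusted p = 0.386). In aged Tconv, 3 of the 11 rose: Art2a-ps, Entpd1 by 2.17 (edgeR adjusted p = 0.0346) and Enpp1 by 1.13 (edgeR adjusted p = 0.0326). Foxp3, Ctla4 and Ikzf2, genes of Treg, were also higher in aged Tconv, by 3.002, 3.08 and 2.85 (edgeR adjusted p = 0.0248, 0.0253 and 0.0226). Il2ra, the remaining Treg marker of the list, went the other way there, at -0.38, and was not called. The part of Treg in the aged Tconv sort was not tested.

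**Figure D4:**
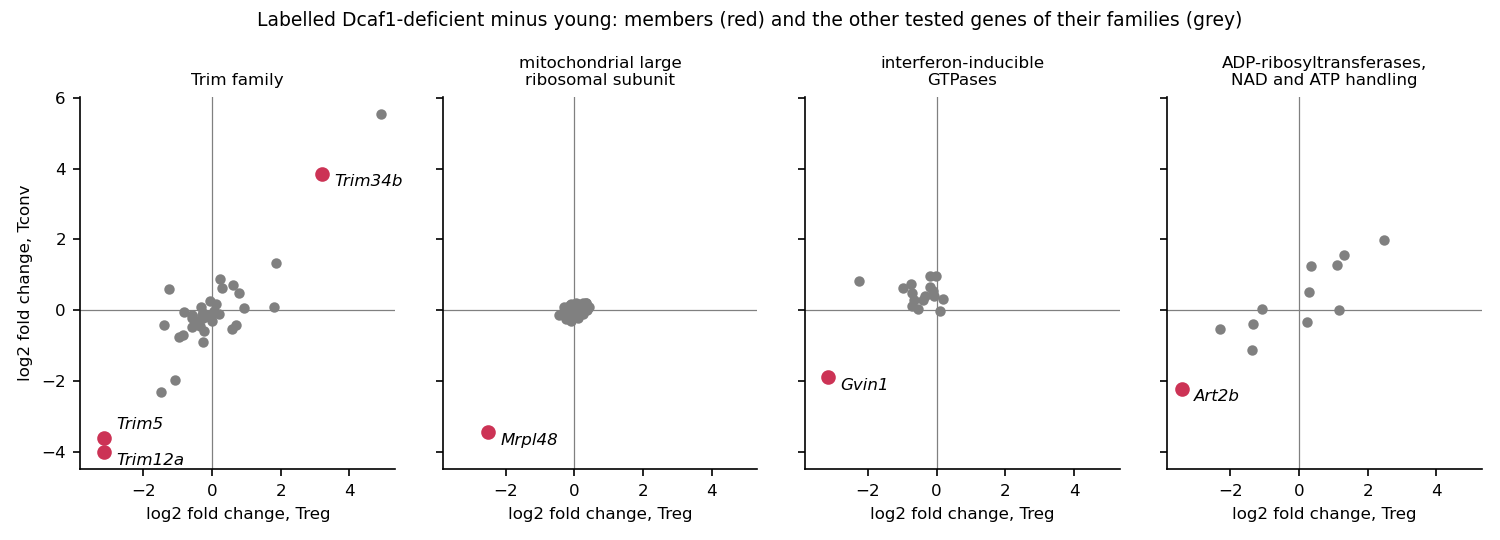
Log2 fold change of labelled against young libraries in Treg (horizontal) and Tconv (vertical) for the tested genes of 4 families, with the 6 chosen genes in red and the others in grey. Mrpl48, Gvin1 and Art2b lie apart from the cloud of their families, and the mitochondrial ribosomal genes lie close to 0 on both axes.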

How the data were processed

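RNA of 12 libraries in 6 groups of 2 was analysed, grouped by the sample titles. The authors deposited estimated counts per gene; Salmon 0.9.1, DESeq2 and mm10 are named in the submitters' processing notes, the file name points to tximport, and the transcript annotation is not given in the sources used here. A second table deposited by the authors holds log2 values, which its name ties to DESeq2. Of the estimated counts 23.5% were whole. They were rounded, and edgeR 4.0.16 (R 4.3.3) gave the quasi-likelihood tests: TMM scaling, filterByExpr (9495 genes tested, 1991 removed), 1 fit of 6 group means over 12 libraries with 6 residual degrees of freedom, Benjamini-Hochberg adjustment over all genes in each of 7 comparisons, threshold 0.05. Log2 CPM used a prior count of 2. With 18358477 to 26852448 counts per library, 3 counts are 0.105 to 0.167 CPM.

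The genes and lists were chosen with earlier results of these data known. Text names the 6 genes, their copies, Dcaf1, genes of the stretch separated by label and up to 3 genes most like each member in log2 CPM. Up to 4 called genes per list and comparison are also named, with Il2ra, Foxp3, Ctla4 and Ikzf2 among these. Hbb-bs, Inppl1, Rab6a, Nt5e, Cd38, P2rx7, Trim10, Olfr613 and the separated genes elsewhere were chosen after their values were seen. A gene that these rules also name is not reported here. Positions and promoter windows are from RefSeq on GRCm38.p6; Gvin1 has no window, and shared words from GENCODE M21. Alternatives were DESeq2 1.42.0, RLE scaling, a fit without filtering, a fit per cell type, a replicate block, a tag term, limma 3.58.1 on the deposited log2 values and leaving out each library. Tests were tested on simulated data.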

Additional observations from a re-analysis of the deposited data

How the results depend on the processing

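For labelled against young libraries in Treg, in Tconv and over both, every alternative kept the sign of all 6 genes, between -4.71 and -1.32 (log2) for the 5 lower ones and between 2.14 and 4.33 for Trim34b. Counts of called genes depended on the setting. DESeq2 called 1156 genes for the label in Treg, 216 in Tconv, 1980 over both, 713 for age in Treg, 2050 for age in Tconv, 962 between aged cell types and 1 in the difference between cell types. Over both cell types the label gave 133 calls with RLE size factors, 39 with no low-count filter, 54 with a tag term and 225 with limma. In Tconv the label gave 16 calls in the fit of that cell type alone and 11 with limma. Age gave 2 calls in Treg with limma and 437 in Tconv with a tag term, and the aged cell types differed in 146 genes with a tag term and 190 with limma. The replicate numbers did not pair the libraries (4 of 15 pairs of groups correlated above 0.1, from -0.66 to 0.68); with the replicate block the label gave 14 calls over both cell types, and the aged cell types 50. Leaving out 1 library gave 0 to 157 calls for the label in Treg, 0 to 17 in Tconv, 0 to 1252 over both, 0 to 434 for age in Treg, 0 to 2340 in Tconv, 21 to 359 between aged cell types and 0 to 0 for the difference. In that setting 0 calls over both cell types were left without young Treg 1, labelled Treg 1 or any 1 young or labelled Tconv library, and 3 without labelled Treg 2. Of the stretch, 3 genes were separated at a gap of 0.5 and 0 at a gap of 2, and 1 to 6 when a library was left out. Leaving out both aged Treg 1 and labelled Treg 1, chosen after seeing the data, gave 7 genes, the 6 and Trim30d; it gave 6, 8 and 33 calls for the label in Treg, in Tconv and over both, 156 and 549 for age in Treg and Tconv, and 27 between aged cell types. There, aged minus young Treg was 0.39 for Trim5 and -0.55 for Trim34b, and aged Treg minus Tconv 0.50 for Trim5, -0.46 for Trim34b and 0.71 for Art2b. With a tag term, aged minus young Treg was -1.08 for Gvin1 and -1.31 for Art2b, and aged minus young Tconv -0.58 for Trim5, -0.12 for Gvin1 and -0.024 for Art2b; limma gave -0.14 for Gvin1 in Treg. Leaving out 1 library, aged minus young Treg ran from -1.84 to 0.41 for Trim5, -0.53 to 2.67 for Trim34b, -1.54 to 0.93 for Gvin1 and -1.75 to 1.49 for Art2b. Aged minus young Tconv ran from -0.33 to 0.35 for Trim34b, and aged Treg minus Tconv from -1.76 to 0.49 for Trim5, -0.47 to 2.73 for Trim34b, -0.80 to 1.67 for Gvin1 and -2.53 to 0.70 for Art2b. For the difference of the label between cell types, 17 of 19 alternatives kept the sign of Trim5, Trim12a and Mrpl48; it turned without labelled Treg 1, alone or with aged Treg 1. The cause of these changes was not tested.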
